A study of Rattus norvegicus with 8 samples.

Results

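Described here are 35 genes for postsynaptic density scaffolds and regulators of small GTPases, including Iqsec3, whose product is known from inhibitory synapses. They were chosen by gene symbol from the authors' deposited comparison table. Ensembl identifiers joined them to the count tables, which hold 32623 annotated genes. All 35 symbols matched 1 identifier. Of these, 24 encode scaffold and spine proteins and 11 encode regulators of small GTPases. Polyadenylated RNA was sequenced from brain (hippocampal) neuronal cultures of wild-type SD rats, harvested on day 18 in vitro. The cultures had received an NMDA receptor PAM (positive allosteric modulator, 4 libraries) or vehicle (4 libraries). Such a modulator strengthens the channel's response to its agonists. The sources used here give neither the compound nor its dose or treatment time. They do not say whether replicates are separate cultures, so the p-values measure the spread between these libraries, which may be technical. The comparison asks how potentiation of the receptor changed transcript levels.

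The postsynaptic density is a protein lattice under the membrane of excitatory synapses. MAGUK proteins such as PSD-95 hold glutamate receptors at its upper face through PDZ domains, SAPAP proteins join the MAGUKs to Shank proteins below, and Homer proteins tie Shank to metabotropic receptors and calcium stores. Around this lattice, exchange factors (GEFs) switch small GTPases of the Rac, Rap and Arf families on and activating proteins (GAPs) switch them off, which sets spine actin and the traffic of AMPA receptors. Both layers are known for remodelling with activity in hippocampal neurons.

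RefSeq promoter windows (build GRCr8) were matched by symbol for 26 of the 35 genes, giving 30 windows of 250 bases before a listed start. The entries named without a window are Dlg3, Mpp3, Dlgap2, Shank1, Shank2, Homer2, Lzts1, Psd3 and Agap2. Iqsec3 and Dlg4 are shown because they had the smallest p-values among the genes with a window, and Sipa1l2 and Sipa1l3 because they are the relatives whose ratio differed most between the groups with all libraries, an order that does not hold without PAM 4. Sequences read 5′ to 3′ on the gene's strand, and capitals mark GC boxes (GGGCGG or its reverse complement, overlapping matches joined).
Iqsec3, chr4:156379397-156379646, minus strand: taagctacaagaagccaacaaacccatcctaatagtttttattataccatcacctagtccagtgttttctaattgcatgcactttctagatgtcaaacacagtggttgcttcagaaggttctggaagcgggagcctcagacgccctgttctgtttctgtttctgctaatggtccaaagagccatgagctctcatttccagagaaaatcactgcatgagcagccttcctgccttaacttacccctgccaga
Dlg4, chr10:55239534-55239783, plus strand: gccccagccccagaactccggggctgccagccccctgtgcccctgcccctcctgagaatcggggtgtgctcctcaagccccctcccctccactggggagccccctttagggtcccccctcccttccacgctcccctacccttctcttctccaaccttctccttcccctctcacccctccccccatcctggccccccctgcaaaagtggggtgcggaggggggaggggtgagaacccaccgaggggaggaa
Sipa1l2, chr19:70437774-70438023, minus strand: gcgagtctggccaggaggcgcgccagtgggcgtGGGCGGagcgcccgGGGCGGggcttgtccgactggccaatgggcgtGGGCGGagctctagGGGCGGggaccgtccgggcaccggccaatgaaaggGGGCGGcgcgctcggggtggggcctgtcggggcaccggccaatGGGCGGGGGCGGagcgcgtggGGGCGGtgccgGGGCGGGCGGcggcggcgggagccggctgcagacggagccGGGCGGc
Sipa1l3, chr1:93831269-93831518, minus strand: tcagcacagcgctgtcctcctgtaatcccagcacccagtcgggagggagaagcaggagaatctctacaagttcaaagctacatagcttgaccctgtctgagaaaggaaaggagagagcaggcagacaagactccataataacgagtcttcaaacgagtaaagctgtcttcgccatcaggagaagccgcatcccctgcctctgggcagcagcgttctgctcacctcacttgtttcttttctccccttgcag
The Sipa1l2 window held 11 GC box matches and 36 CpG dinucleotides, the Sipa1l3 window 0 and 7, the Dlg4 window 0 and 5, and the Iqsec3 window 0 and 2. The last letters of the Sipa1l3 window, a pyrimidine-rich run followed by cag, are those that usually precede an internal exon, and whether its listed start is a transcription start was not tested.

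A GC box on either strand was found in 3 of the 11 windows (10 genes) of the genes that fell with PAM. It was in 11 of the 19 windows (16 genes) of the genes that did not pass the test. Of all 33469 rat windows of the same length, 30.5% held it. The median window held 6, 12 and 5 CpG dinucleotides in these sets, in that order. Differences between the sets were not tested, and the Sipa1l3 window is among the 11. The other motifs searched on both strands were TGACGTCA (a cAMP response element), CACGTG (an E-box), TATAAA (the core of a TATA box), CCAAT (a site bound by NF-Y), GCGTGGGCG (an EGR site, which can share bases with a GC box) and the CArG box of serum response factor. TGACGTCA was in 0 of the 30 windows, against 1.59% of all windows, and the CArG box in 0, against 1.497%. GCGTGGGCG was in 1, that of Sipa1l2, against 0.478%. CACGTG was in 2 (against 5.59%), TATAAA in 3 (against 12.9%) and CCAAT in 10 (against 34.0%).

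Total counts per library ran from 2960406 to 4389430. Levels are CPM, counts divided by the library's TMM-scaled total and multiplied by 1000000, and a gene without counts could still be present at 0.683 to 1.01 per 1000000 counts (3 counts, counting error only). PAM 3 and PAM 4 stood apart from the other libraries. Relative to each gene's mean over all libraries, their levels fell with exonic length by 0.085 and 0.13 log2 units per doubling. The slope on the same scale was 0.0052 and 0.063 in PAM 1 and PAM 2 and 0.015 to 0.052 in vehicle libraries. The members are long, with a median exonic length of 3816.5 bases over the 34 tested members, against 2457 over all tested genes. Cell type markers also moved with the groups. The summed level of the 9 neuron markers was 2885 to 3545 CPM in PAM libraries and 3721 to 4185 CPM in vehicle libraries, with 3 of 9 tested lower, Rbfox3 among them, and Map2 not called. The astrocyte markers summed to 9133 to 11113 CPM in PAM libraries and 6237 to 6564 CPM in vehicle libraries (5 of 8 higher, Gfap and Aqp4 among them). The oligodendrocyte lineage markers summed to 1349 to 1747 CPM in PAM libraries and 957 to 1069 CPM in vehicle libraries (5 of 10 higher, Mbp among them, and 1 lower, Pdgfra). The ependymal and choroid plexus markers summed to 146 to 229 CPM in PAM libraries and 40.1 to 57.3 CPM in vehicle libraries (5 of 5 higher, with Ccdc153 at 52.9 ± 16.4 CPM in PAM and 14.5 ± 1.15 CPM in vehicle libraries and Tmem212 at 19.7 ± 5.57 CPM in PAM and 4.403 ± 2.47 CPM in vehicle libraries), and Ttr, which defines choroid plexus, was at 2.67 ± 1.23 CPM in PAM and 0.761 ± 0.915 CPM in vehicle libraries. The endothelial and fibroblast markers summed to 109.6 to 198 CPM in PAM libraries and 57.0 to 87.7 CPM in vehicle libraries (3 of 4 higher, Kdr and Col1a1 among them). The microglial markers summed to 12.6 to 18.1 CPM in PAM libraries and 15.4 to 46.0 CPM in vehicle libraries (2 tested, 0 called), with C1qa at 6.71 ± 0.561 CPM in PAM and 11.2 ± 6.81 CPM in vehicle libraries and C1qb at 6.65 ± 1.80 CPM in PAM and 11.1 ± 4.92 CPM in vehicle libraries. CPM is a share of each library's counts. In these bulk libraries fewer neurons, less RNA per neuron and more RNA from other cells cannot be told apart. The part of cell makeup in the results below was not tested.

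Many transcripts of the postsynaptic lattice and of its GTPase regulators were lower in PAM libraries. With all libraries, Mpp2, Shank1 and Mpp3 were lowest relative to vehicle among the tested members, and the first place of Mpp2 leans on PAM 4. Of the 35 genes, 34 passed the filter on low counts, 14 of these fell and 0 rose (quasi-likelihood test of edgeR, Benjamini-Hochberg adjustment over all 11740 tested genes, threshold 0.05). Of all tested genes, 9.89% were called lower and 9.00% higher. The median log2 fold change of the 34 genes was -0.41, against 0.021 over all tested genes, and 31 of the 34 estimates lay below 0. Every PAM library lay below every vehicle library for 16 of the 34, against 12.0% of all tested genes, and above for 1, Sipa1l2, against 10.3%. The 14 were Dlg3, Dlg4, Mpp2, Mpp3, Dlgap3, Dlgap4, Shank1, Shank3, Cnksr2, Lzts1, Sipa1l3, Iqsec2, Iqsec3 and Kalrn. For 5 of them, Mpp2, Mpp3, Shank1, Iqsec3 and Kalrn, the fitted PAM level with all libraries was under 50% of the vehicle level. Kalrn is among them through PAM 4 (15.9 CPM), since PAM 1 to 3 each lay above 50% of its vehicle mean (66.5 CPM). The member left out of the test was Shank2, with 5, 4, 5 and 8 counts in PAM 1 to 4 and 8, 12, 6 and 21 counts in vehicle 1 to 4. Of the 35 genes, 15 were lower in the authors' deposited table at an adjusted p under 0.05 and 0 higher, Psd being the addition to the 14. The share of all genes called lower in that table is not given here. A DESeq2 fit of the deposited counts called 1211 of 19311 genes lower.

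**Figure D1:**
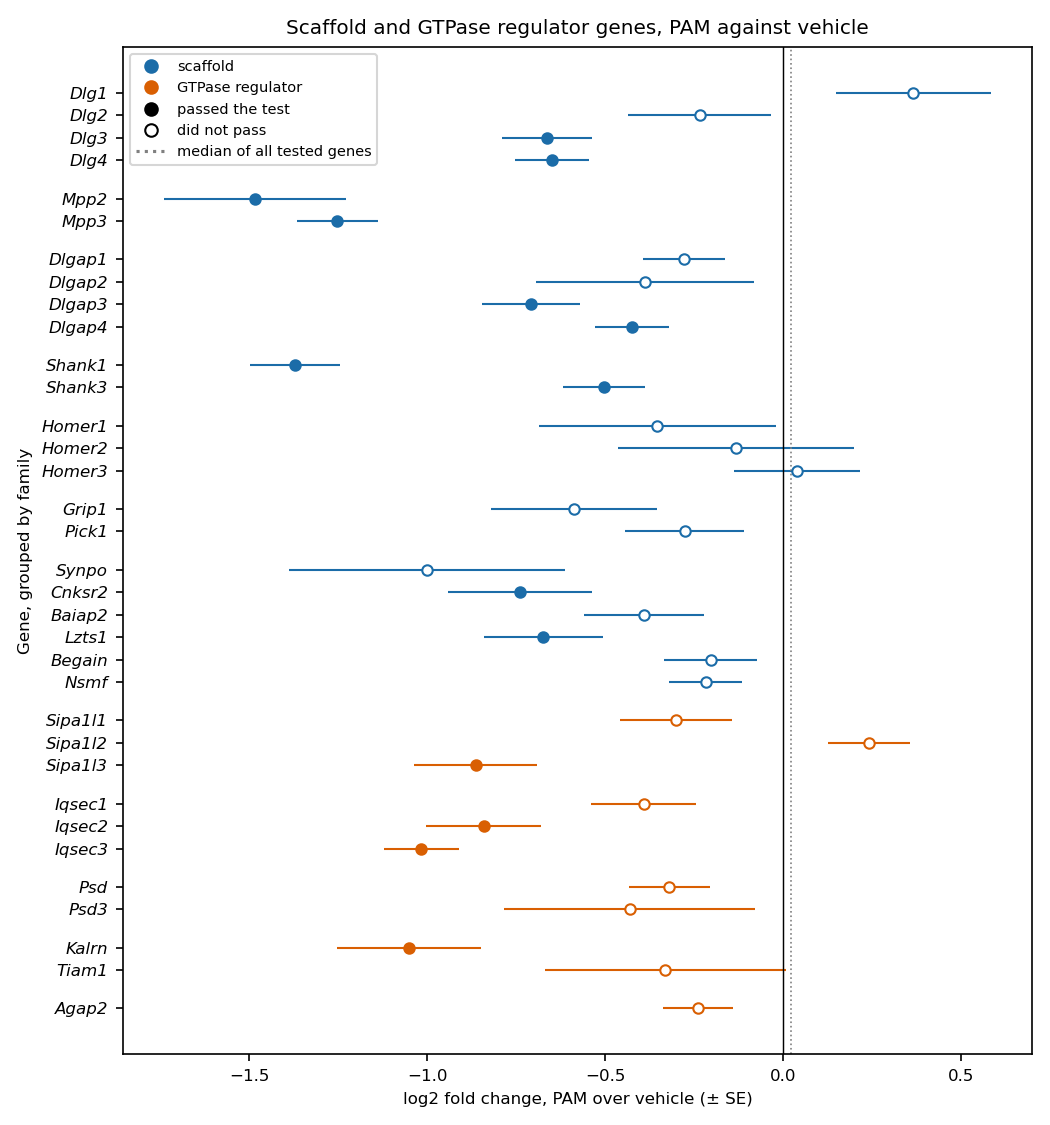
Log2 fold change of each tested gene (x axis, PAM over vehicle, bars ± SE), grouped by family down the page, with scaffolds in blue and GTPase regulators in orange. Filled points passed the test, and all 14 of them lie left of 0, whereas Dlg1, Homer3 and Sipa1l2 lie right of it without passing.

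The level of each gene per length (TPM, counts divided by exonic length and scaled to sum to 1000000 per library) spanned a wide range. Nsmf was highest, at 276 ± 9.21 TPM in PAM and 332 ± 10.9 TPM in vehicle libraries (mean ± SD, n = 4 per group), followed in vehicle libraries by Dlg4 (182 ± 26.2 TPM in PAM and 292 ± 27.8 TPM in vehicle libraries), Psd (186 ± 16.2 TPM in PAM and 241 ± 11.5 TPM in vehicle libraries), Agap2 (159 ± 18.4 TPM in PAM and 194 ± 8.88 TPM in vehicle libraries) and Dlgap3 (91.4 ± 11.4 TPM in PAM and 156 ± 12.8 TPM in vehicle libraries). Dlgap2 (3.36 ± 0.602 TPM in PAM and 4.50 ± 1.22 TPM in vehicle libraries), Tiam1 (1.82 ± 0.443 TPM in PAM and 2.33 ± 0.376 TPM in vehicle libraries) and Shank2 (0.212 ± 0.0969 TPM in PAM and 0.523 ± 0.312 TPM in vehicle libraries) were lowest. The low genes Homer1, Homer2, Psd3, Dlgap2 and Tiam1 had SEs of 0.31 to 0.35 on the log2 scale, so that moderate differences were not detectable at this depth.

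Among the MAGUKs, Dlg4 and Dlg3 fell, whereas Dlg1 and Dlg2 did not pass the test. Dlg4 (ENSRNOG00000018526; Rnor_6.0 chromosome 10, 56627411 to 56653599, plus strand) encodes PSD-95, the main anchor of receptors at mature excitatory synapses, and was at 399, 377, 414 and 354 CPM in PAM 1 to 4, against 529.9, 648, 579 and 665 CPM in vehicle 1 to 4. The groups were 1.57-fold apart in their means, lower with PAM, and did not overlap. The log2 fold change was -0.65 ± 0.10 (SE; edgeR, Benjamini-Hochberg adjusted p = 0.000238). Dlg3, which encodes SAP102, a MAGUK abundant at young synapses, was at 80.7, 96.8, 73.6 and 110.3 CPM in PAM 1 to 4, against 134, 148, 144 and 145 CPM in vehicle 1 to 4. Each PAM library lay below each vehicle library, with PAM 3 lowest and PAM 4 highest of the PAM libraries (log2 fold change -0.67 ± 0.13, edgeR adjusted p = 0.00107). Dlg1, which encodes SAP97, was at 23.5, 35.4, 23.3 and 19.8 CPM in PAM 1 to 4, against 20.7, 23.9, 19.1 and 15.9 CPM in vehicle 1 to 4. PAM 2 was the highest and the groups overlapped (log2 fold change 0.36 ± 0.22, edgeR adjusted p = 0.266), and without PAM 2 the log2 fold change was 0.16 (edgeR adjusted p = 0.667, range 0.0349 to 0.667 over 19 alternatives). Dlg2, which encodes PSD-93, was at 23.4 ± 3.88 CPM in PAM libraries and 27.5 ± 5.30 CPM in vehicle libraries (edgeR adjusted p = 0.457).

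The related p55-type MAGUK genes Mpp2 and Mpp3 encode membrane-associated adaptors with PDZ, SH3 and guanylate kinase-like domains. With all libraries they had the largest and third-largest decreases of the 34 tested genes by log2 fold change. Mpp3 (ENSRNOG00000033653; Rnor_6.0 chromosome 10, 89930241 to 89959176, minus strand) was at 61.5, 67.4, 69.0 and 55.9 CPM in PAM 1 to 4, against 139.6, 159.7, 146 and 161 CPM in vehicle 1 to 4. All PAM values lay under 50% of the lowest vehicle value (log2 fold change -1.25 ± 0.11, edgeR adjusted p = 1.38e-06). Mpp2 (ENSRNOG00000059683; Rnor_6.0 chromosome 10, 89999917 to 90030639, minus strand) was at 22.4, 26.7, 15.1 and 7.21 CPM in PAM 1 to 4, against 51.8, 51.2, 46.0 and 56.3 CPM in vehicle 1 to 4. The vehicle libraries were close together, whereas the PAM libraries were spread, with PAM 4 lowest (log2 fold change -1.48 ± 0.25, edgeR adjusted p = 0.000528). The larger decrease of Mpp2 leans on PAM 4. The log2 ratio of Mpp2 to Mpp3, PAM minus vehicle, was -0.37 with all libraries and -0.072 without PAM 4. Without PAM 3 and PAM 4 it was 0.18. The pair are neighbours on the same strand, 40.74 kb apart with 1 annotated gene between them, and share no exon bases.

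The SAPAP genes (Dlgap1 to Dlgap4) all had estimates below 0, apart from Dlgap1 when scaled to neuron markers (0.023), and 2 fell. Dlgap3, whose product links PSD-95 to Shank, was at 179.8, 185, 268 and 274 CPM in PAM 1 to 4, against 317, 377, 400.4 and 383 CPM in vehicle 1 to 4. PAM 1 and PAM 2 were lower than PAM 3 and PAM 4, and all 4 were below the vehicle libraries (log2 fold change -0.71 ± 0.14, edgeR adjusted p = 0.00131). Dlgap4 was at 130.0, 145, 137 and 162 CPM in PAM 1 to 4, against 184, 198, 196 and 193 CPM in vehicle 1 to 4. The groups did not overlap, and the difference was smaller (log2 fold change -0.43 ± 0.10, edgeR adjusted p = 0.00748). Dlgap1, the GKAP gene, averaged 86.5 ± 6.87 CPM in PAM libraries and 105 ± 8.63 CPM in vehicle libraries (edgeR adjusted p = 0.101), and Dlgap2 averaged 7.37 ± 0.469 CPM in PAM libraries and 9.68 ± 2.67 CPM in vehicle libraries (edgeR adjusted p = 0.414).

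Shank1 and Shank3, which encode the deep master scaffolds of the density, both fell. Shank1 (ENSRNOG00000019207; Rnor_6.0 chromosome 1, 100297152 to 100344377, plus strand) was at 76.5, 104, 84.3 and 82.6 CPM in PAM 1 to 4, against 209, 204, 218 and 270.1 CPM in vehicle 1 to 4. The highest PAM library lay just above 50% of the lowest vehicle library (log2 fold change -1.37 ± 0.13, edgeR adjusted p = 1.38e-06). Shank3 was at 124, 135, 147 and 107 CPM in PAM 1 to 4, against 177, 189, 167 and 195 CPM in vehicle 1 to 4. All PAM values were below all vehicle values, by less than for Shank1 (log2 fold change -0.50 ± 0.11, edgeR adjusted p = 0.00453). Homer genes did not pass. Homer3 was at 33.7, 35.4, 43.0 and 36.8 CPM in PAM 1 to 4, against 48.2, 34.7, 29.1 and 32.7 CPM in vehicle 1 to 4, with groups that overlapped (log2 fold change 0.039 ± 0.18, edgeR adjusted p = 0.907). Homer1 averaged 11.01 ± 5.76 CPM in PAM libraries and 14.4 ± 3.48 CPM in vehicle libraries (edgeR adjusted p = 0.506) and Homer2 averaged 7.46 ± 2.03 CPM in PAM libraries and 8.24 ± 2.34 CPM in vehicle libraries (edgeR adjusted p = 0.823). Counts per gene do not separate the short, activity-induced Homer1 transcript from the long ones.

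**Figure D2:**
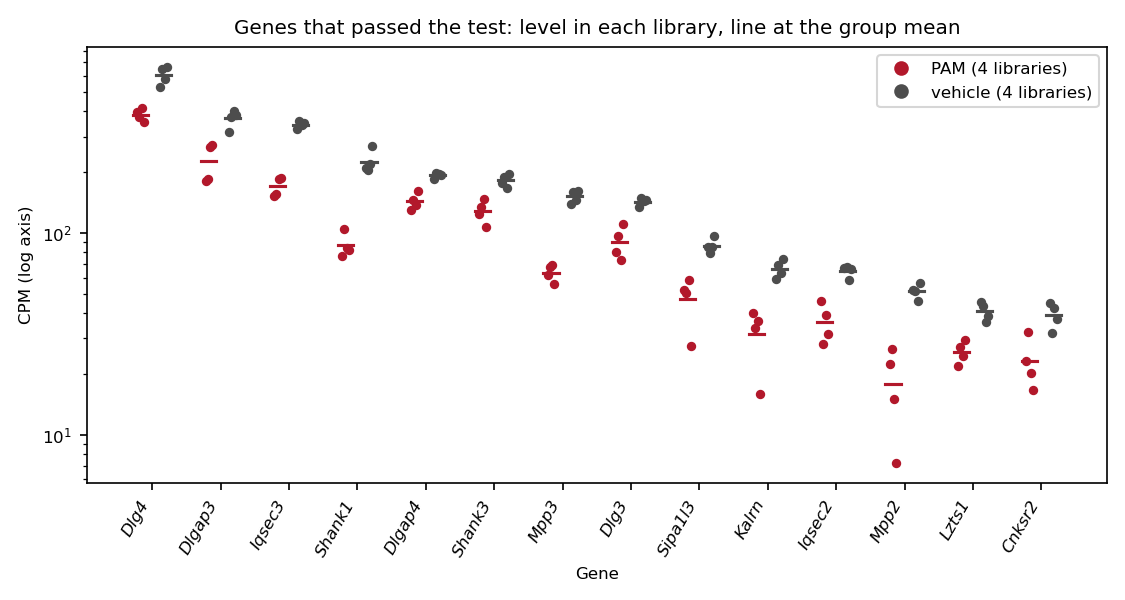
CPM of the 14 genes that passed the test, one point per library on a log axis, with PAM libraries left of vehicle libraries and a line at each group mean. The groups are apart for all of them except Cnksr2, where PAM 2 at 32.2 CPM and vehicle 2 at 31.9 CPM overlap, and PAM 4 is the lowest PAM library for Mpp2 and Kalrn.

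Of the remaining scaffold and spine genes, 2 of 8 fell. Lzts1, which encodes the postsynaptic protein PSD-Zip70, was at 21.9, 27.1, 24.6 and 29.6 CPM in PAM 1 to 4, against 45.4, 43.5, 36.3 and 38.8 CPM in vehicle 1 to 4. The groups did not overlap (log2 fold change -0.67 ± 0.17, edgeR adjusted p = 0.00781). Cnksr2, which encodes a multi-domain scaffold that binds PSD-95 and couples to Ras signalling, was at 23.3, 32.2, 20.3 and 16.6 CPM in PAM 1 to 4, against 44.8, 31.9, 42.3 and 37.2 CPM in vehicle 1 to 4. PAM 2 lay just above vehicle 2 (log2 fold change -0.74 ± 0.20, edgeR adjusted p = 0.015). The call ended without vehicle 1 (edgeR adjusted p = 0.0572) and without PAM 3 and PAM 4, at a log2 fold change of -0.47 (edgeR adjusted p = 0.0729). Over all 19 alternatives its adjusted p ran from 0.00207 to 0.117.

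The other 6 did not pass with all libraries. Synpo, whose product synaptopodin belongs to the spine apparatus, averaged 8.95 ± 5.70 CPM in PAM libraries and 18.5 ± 6.43 CPM in vehicle libraries, with 4.93 and 3.24 CPM in PAM 3 and PAM 4 and 9.45 CPM in vehicle 1 (log2 fold change -1.001 ± 0.39, edgeR adjusted p = 0.081). It passed without PAM 2, at -1.34 (edgeR adjusted p = 0.0214), and without vehicle 1, at -1.21 (edgeR adjusted p = 0.0431, range 0.00622 to 0.329 over 19 alternatives). Grip1, a PDZ adaptor of AMPA receptors, averaged 15.6 ± 4.98 CPM in PAM libraries and 23.7 ± 2.12 CPM in vehicle libraries, with groups that did not overlap (edgeR adjusted p = 0.0879). It passed without PAM 2, at -0.75 (edgeR adjusted p = 0.0397, range 0.0397 to 0.476). Pick1, whose product binds AMPA receptors during their internalisation, averaged 53.8 ± 13.1 CPM in PAM libraries and 64.7 ± 7.26 CPM in vehicle libraries (edgeR adjusted p = 0.271). Baiap2, which encodes the Rac and Cdc42 effector IRSp53, averaged 42.9 ± 10.5 CPM in PAM libraries and 55.9 ± 6.12 CPM in vehicle libraries (edgeR adjusted p = 0.116). It passed without PAM 4, at -0.55 (edgeR adjusted p = 0.0125, range 0.0125 to 0.701). Begain, whose product binds the guanylate kinase-like domain of PSD-95, averaged 201 ± 41.4 CPM in PAM libraries and 231 ± 16.03 CPM in vehicle libraries (edgeR adjusted p = 0.298). Nsmf, which encodes Jacob, a messenger from NMDA receptors to the nucleus, averaged 533 ± 59.5 CPM in PAM libraries and 619 ± 20.4 CPM in vehicle libraries, with groups that did not overlap (log2 fold change -0.22 ± 0.10, edgeR adjusted p = 0.148).

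Among the regulators of small GTPases 4 of 11 fell: a Rap GAP gene, a pair of Arf GEF genes and a Rac GEF gene. In the Rap GAP family the estimates had different signs. Sipa1l3 (ENSRNOG00000020703; Rnor_6.0 chromosome 1, 87260835 to 87468288, minus strand) was at 51.9, 50.3, 58.0 and 27.4 CPM in PAM 1 to 4, against 85.1, 79.0, 84.8 and 96.1 CPM in vehicle 1 to 4. PAM 4 was lowest, and every PAM library was below every vehicle library (log2 fold change -0.86 ± 0.17, edgeR adjusted p = 0.00164). Sipa1l2 (ENSRNOG00000019791; Rnor_6.0 chromosome 19, 58236214 to 58399816, minus strand), which encodes SPAR2, was at 89.2, 100.4, 88.2 and 82.6 CPM in PAM 1 to 4, against 75.0, 74.6, 79.2 and 76.7 CPM in vehicle 1 to 4. Here every PAM library was above every vehicle library, by a narrow margin, and the difference did not pass (log2 fold change 0.24 ± 0.11, edgeR adjusted p = 0.155). With the length trend of each library removed it passed, at 0.36 (edgeR adjusted p = 0.0351, range 0.00624 to 0.308 over 19 alternatives). Sipa1l1, which encodes SPAR, the spine-associated Rap GAP, averaged 60.9 ± 15.1 CPM in PAM libraries and 75.7 ± 4.46 CPM in vehicle libraries (edgeR adjusted p = 0.2), with 39.7 CPM in PAM 4.

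Iqsec3, Iqsec2 and Iqsec1 encode the BRAG exchange factors of Arf GTPases. Iqsec3 (ENSRNOG00000014083; Rnor_6.0 chromosome 4, 153948055 to 154044493, minus strand), whose product is known from inhibitory synapses, where it binds gephyrin, was at 152, 156, 185 and 187 CPM in PAM 1 to 4, against 328, 357, 341 and 351 CPM in vehicle 1 to 4. Both groups were tight and far apart (log2 fold change -1.02 ± 0.11, edgeR adjusted p = 5.01e-06). Iqsec2, whose product sits in the excitatory density, was at 45.9, 28.1, 39.2 and 31.4 CPM in PAM 1 to 4, against 66.8, 68.0, 58.5 and 66.3 CPM in vehicle 1 to 4. The groups did not overlap (log2 fold change -0.84 ± 0.16, edgeR adjusted p = 0.00109). Iqsec1 was at 47.2, 56.3, 63.5 and 68.1 CPM in PAM 1 to 4, against 76.8, 92.2, 62.6 and 75.4 CPM in vehicle 1 to 4. PAM 3 and PAM 4 lay above vehicle 3 and the gene did not pass (log2 fold change -0.39 ± 0.15, edgeR adjusted p = 0.0721). It passed without PAM 4, at -0.47 (edgeR adjusted p = 0.0273), and without vehicle 3, at -0.48 (edgeR adjusted p = 0.0496, range 0.00548 to 0.694 over 19 alternatives).

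Among the Rac exchange factors, Kalrn, the gene of the spine protein kalirin, was at 40.1, 33.7, 36.7 and 15.9 CPM in PAM 1 to 4, against 58.8, 69.4, 63.6 and 74.1 CPM in vehicle 1 to 4. PAM 4 was lowest by a wide margin, and no PAM library reached the vehicle range (log2 fold change -1.05 ± 0.20, edgeR adjusted p = 0.00118). Tiam1, whose product couples NMDA receptors to Rac, averaged 5.65 ± 0.778 CPM in PAM libraries and 7.18 ± 1.29 CPM in vehicle libraries and did not pass (edgeR adjusted p = 0.546). Psd, which encodes the Arf6 exchange factor EFA6A, was at 421, 438, 582 and 551 CPM in PAM 1 to 4, against 591, 593, 623 and 677 CPM in vehicle 1 to 4. PAM 1 and PAM 2 were well below the vehicle libraries, PAM 3 and PAM 4 just below them, and the gene did not pass (log2 fold change -0.32 ± 0.11, edgeR adjusted p = 0.0585). It passed without PAM 3, at -0.40 (edgeR adjusted p = 0.0274), without PAM 4, at -0.37 (edgeR adjusted p = 0.0212), and by DESeq2 (adjusted p = 0.0444, range 1.55e-05 to 0.962 over 19 alternatives). Psd3, of the same family, averaged 9.11 ± 4.53 CPM in PAM libraries and 12.2 ± 3.18 CPM in vehicle libraries (edgeR adjusted p = 0.431). Agap2, which encodes the Arf GAP and GTPase PIKE, averaged 514 ± 44.5 CPM in PAM libraries and 608 ± 25.1 CPM in vehicle libraries (log2 fold change -0.24 ± 0.098, edgeR adjusted p = 0.0959). It passed without PAM 3, at -0.30 (edgeR adjusted p = 0.0464, range 0.00885 to 0.726).

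**Figure D3:**
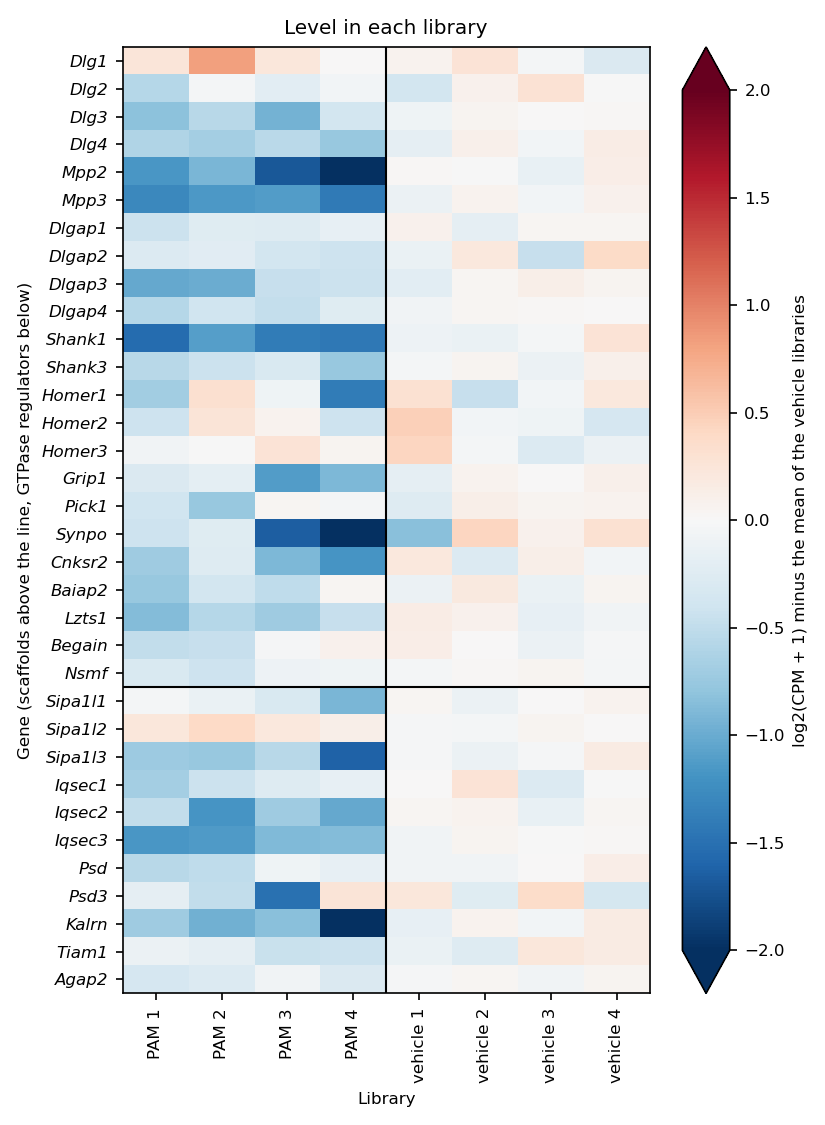
Log2(CPM + 1) of each tested gene minus its mean over vehicle libraries, with 1 column per library (PAM left of the line) and 1 row per gene (scaffolds above the line, GTPase regulators below). Shank1, Mpp3 and Iqsec3 are low in every PAM library, whereas Synpo, Kalrn, Sipa1l3 and Mpp2 are lowest in PAM 4, and Dlgap3, Psd and Begain are lower in PAM 1 and PAM 2 than in PAM 3 and PAM 4.

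Both the scaffold genes and the GTPase regulators held genes that fell and none that rose. Of 23 tested scaffold genes 10 fell, and of 11 regulators 4 fell, against 9.89% of all tested genes. The median log2 fold change was -0.43 for the scaffolds and -0.39 for the regulators. In single libraries the scaffold median of log2(CPM + 1), relative to the vehicle mean of each gene, was -0.56, -0.40, -0.46 and -0.42 in PAM 1 to 4 and -0.065 to 0.054 in vehicle libraries. The regulator median was -0.49, -0.50, -0.45 and -0.42 in PAM 1 to 4 and -0.033 to 0.056 in vehicle libraries. Neither class was lower than the other in all PAM libraries, and the difference between the classes was not tested. Without PAM 3 and PAM 4, 13 scaffold genes and 7 regulators fell, 13 of the 14 genes called with all libraries among these 20. Over all genes 1526 of 12253 were then called lower, against 1161 of 11740 with all libraries. The additions were Pick1, Baiap2, Begain, Nsmf, Iqsec1, Psd and Agap2, with log2 fold changes of -0.57, -0.55, -0.47, -0.35, -0.56, -0.52 and -0.30.

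Scaled to the summed counts of the neuron markers, a choice made after seeing the data that shifts the median of all tested genes to 0.33 on the log2 scale, 9 of the 14 genes remained lower: Shank1 (-1.07), Mpp2 (-1.18), Mpp3 (-0.94), Dlg3 (-0.37), Dlgap3 (-0.40), Iqsec3 (-0.71), Iqsec2 (-0.52), Kalrn (-0.73) and Sipa1l3 (-0.55). The calls of Dlg4 (-0.33, edgeR adjusted p = 0.0672), Dlgap4 (-0.12, adjusted p = 0.495), Shank3 (-0.19, adjusted p = 0.323), Lzts1 (-0.38, adjusted p = 0.134) and Cnksr2 (-0.44, adjusted p = 0.117) ended under this scaling. Dlg1 (0.65) and Sipa1l2 (0.55) were called higher under it. The median of the 34 genes was -0.11, with 23 estimates below 0. The 9 neuron markers themselves had a median of -0.26 under this scaling, with 1 called lower, and of -0.55 with TMM. Scaling to their sum thus left the median marker below 0, and a fall beyond that of the neuron markers was not tested. Over all 11740 tested genes, 341 were called lower and 3056 higher under it.

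Genes of 1 family were then compared inside each library, where a ratio hardly depends on the scaling. Kalrn and Tiam1 were grouped as Rac exchange factors rather than as close relatives, and Tiam1 had only 14 to 29 counts per library. Of 25 ratios between tested genes of 1 family (log2 of CPM + 1), 8 had groups that did not overlap, each at p = 0.0286 by an exact two-sided permutation test, the smallest p that 4 against 4 libraries can give. After Benjamini-Hochberg adjustment over the 25 these were at 0.0893, so 0 passed. How often ratios of other gene pairs separate in this way was not tested. Of single tested genes, 12.0% had all PAM libraries below and 10.3% all above the vehicle libraries. The ratio of Shank1 to Shank3 was -0.56 ± 0.22 in PAM and 0.30 ± 0.16 in vehicle libraries (log2, SD, n = 4 each), a difference of -0.86. That of Sipa1l2 to Sipa1l3 was 0.98 ± 0.42 in PAM and -0.17 ± 0.11 in vehicle libraries, a difference of 1.15. It was the largest of the 25 with all libraries, but without PAM 4 (0.95) it was smaller than that of Dlg1 to Dlg3 (1.20), and likewise without PAM 3 and PAM 4 (1.05 against 1.22). The Dlg1 to Dlg4 ratio was -3.90 ± 0.35 in PAM and -4.87 ± 0.31 in vehicle libraries (difference 0.97) and the Dlg1 to Dlg3 ratio differed by 0.996. Iqsec1 over Iqsec3 differed by 0.64, Kalrn over Tiam1 by -0.83, Sipa1l1 over Sipa1l3 by 0.57 and Sipa1l1 over Sipa1l2 by -0.58. The length trend of PAM 3 and PAM 4 was not removed from the ratios. Exonic length was 3453 bases for Iqsec1 and 7514 for Iqsec3, and 9374 for Kalrn and 4773 for Tiam1. Without PAM 3 and PAM 4, Iqsec1 over Iqsec3 differed by 0.60 and Kalrn over Tiam1 by -0.68. The Dlg3 to Dlg4 ratio, by contrast, was -2.10 ± 0.36 in PAM and -2.07 ± 0.10 in vehicle libraries, a difference of -0.028 (exact two-sided permutation p = 0.886).

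**Figure D4:**
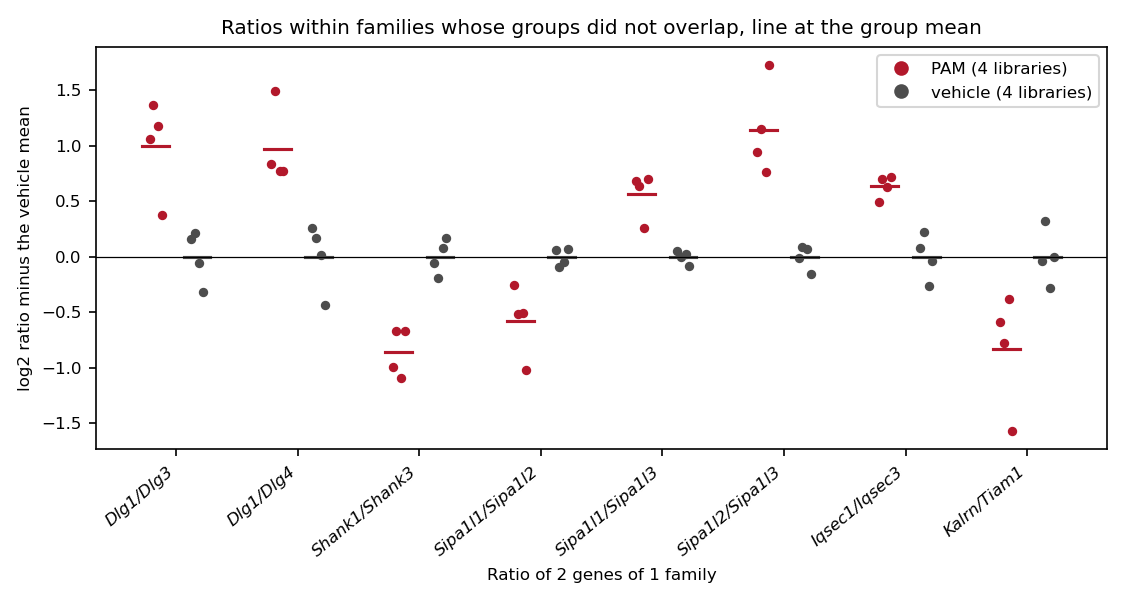
Log2 ratio of 2 genes of 1 family in each library, minus the vehicle mean of that ratio, for the 8 ratios whose groups did not overlap, with PAM left of vehicle and a line at each group mean. Sipa1l2 over Sipa1l3 is above 0 and Shank1 over Shank3 below 0 in all 4 PAM libraries.

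Shares of each family's summed TPM (mean ± SD, n = 4) describe its make-up. Of Shank TPM, Shank1 made up 40.8% ± 3.62 in PAM and 55.4% ± 2.61 in vehicle libraries, and Shank3 58.7% ± 3.76 in PAM and 43.9% ± 2.74 in vehicle libraries. Of Sipa1l TPM, Sipa1l2 made up 47.4% ± 6.14 in PAM and 33.6% ± 1.41 in vehicle libraries, and Sipa1l3 20.1% ± 3.56 in PAM and 31.7% ± 1.21 in vehicle libraries. Of Iqsec TPM, Iqsec3 held 50.5% ± 0.309 in PAM and 59.4% ± 2.85 in vehicle libraries, and Iqsec1 37.9% ± 2.90 in PAM and 28.6% ± 2.77 in vehicle libraries. Dlg4 held most of the MAGUK TPM, with 79.6% ± 3.33 in PAM and 82.6% ± 1.33 in vehicle libraries, and Dlg1 held 4.29% ± 1.09 in PAM and 2.24% ± 0.439 in vehicle libraries. Among the SAPAP genes Dlgap3 held 49.0% ± 4.79 in PAM and 54.8% ± 2.24 in vehicle libraries and Dlgap4 35.1% ± 3.33 in PAM and 31.9% ± 1.21 in vehicle libraries. Of Homer TPM, Homer3 held 56.7% ± 9.97 in PAM and 49.6% ± 3.80 in vehicle libraries. These shares were not tested apart from the ratios, and the length trend was not removed from them.

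**Figure D5:**
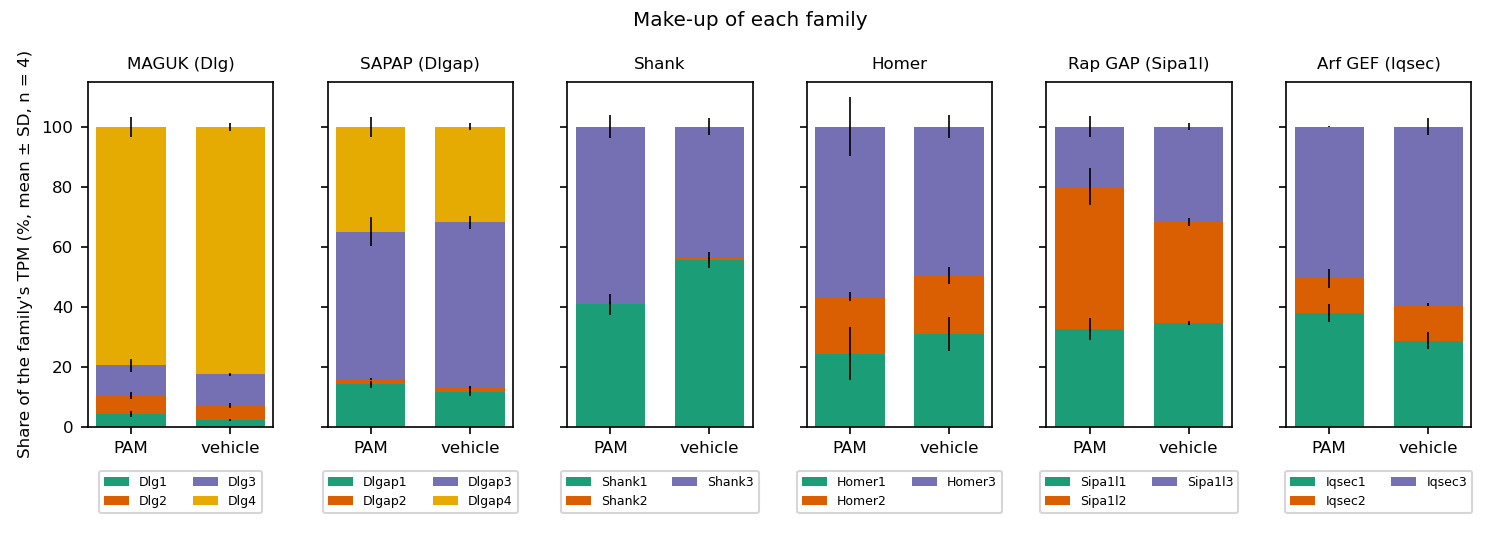
Share of each gene in the summed TPM of its family (stacked bars, percent, mean over 4 libraries per group, error bars ± SD), with PAM left of vehicle. Shank1 makes up less of the Shank bar and Sipa1l2 more of the Sipa1l bar in PAM than in vehicle libraries, and Dlg4 fills most of the MAGUK bar in both.

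Other genes of the same machinery were taken from 5 further lists, whose counts stand against 9.89% of all tested genes called lower and 9.00% called higher. Of 26 tested genes of other postsynaptic scaffolds, 5 fell, 0 rose, and the median of their log2 fold changes was -0.19. Ppp1r9b, which encodes the spine protein spinophilin, was at 457 ± 40.9 CPM in PAM and 659.7 ± 40.9 CPM in vehicle libraries (log2 fold change -0.53 ± 0.10). The largest decrease among them was that of Lzts3, a relative of Lzts1, at 10.2 ± 6.21 CPM in PAM and 31.3 ± 3.09 CPM in vehicle libraries (-1.56 ± 0.35). Tanc1 (-1.20 ± 0.28) and Lin7b (-0.92 ± 0.24), also scaffold genes, and Lrrc7 (-1.06 ± 0.32), which encodes densin and is named here after its value was seen, fell as well.

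Of 28 tested genes of other GTPase regulators, 10 fell and 1 rose, with a median of -0.39. Rapgef4, the gene of the cAMP-activated Rap exchange factor Epac2, was at 14.03 ± 4.48 CPM in PAM and 39.9 ± 7.31 CPM in vehicle libraries (-1.49 ± 0.22). Trio, the closest relative of Kalrn, was at 41.2 ± 6.66 CPM in PAM and 73.4 ± 4.54 CPM in vehicle libraries (-0.82 ± 0.14), and Arhgef2, another exchange factor gene, at 46.2 ± 7.74 CPM in PAM and 81.6 ± 5.09 CPM in vehicle libraries (-0.82 ± 0.14). Rasgrf1, which encodes a calcium-responsive Ras exchange factor, was at 101 ± 1.89 CPM in PAM and 153 ± 11.5 CPM in vehicle libraries (-0.60 ± 0.11). The gene that rose was Cyth2, which encodes the Arf exchange factor cytohesin-2, at 90.5 ± 12.3 CPM in PAM and 64.5 ± 2.69 CPM in vehicle libraries (0.48 ± 0.13), named here after its value was seen.

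Of the small GTPase genes themselves, 2 of 12 fell, a share near that over all tested genes, namely Arf1 (-0.48 ± 0.14) and Rhob (-0.28 ± 0.093), 0 rose, and the median was 0.00073. Of 10 tested genes for effectors of spine actin, 4 fell and 0 rose, with a median of -0.28. These were Limk1, the gene of the kinase that inactivates cofilin, at 109 ± 9.83 CPM in PAM and 196 ± 2.67 CPM in vehicle libraries (-0.84 ± 0.10), Wasf1 (-0.64 ± 0.11), which encodes the actin regulator WAVE1, Dbn1 (-0.51 ± 0.11), which encodes drebrin, and Arpc2 (-0.31 ± 0.097), which encodes a subunit of the Arp2/3 complex. Of the 5 genes of the inhibitory postsynapse 3 fell, among them the gephyrin gene Gphn (-0.37 ± 0.12) and the adhesion gene Nlgn2 (-0.94 ± 0.14), and the median was -0.37. Scaled to neuron markers, 341 of all 11740 tested genes were called lower and 3056 higher. Under this scaling 3 of 26 other scaffold genes were called lower and 3 higher. In the same order, 4 and 1 of 28 other regulators and 0 and 1 of 12 small GTPase genes were called. The counts were 1 and 1 of 10 actin effector genes, and 1 and 0 of 5 inhibitory genes. Whether these lists differ from each other or from the 35 genes was not tested.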

How the data were processed

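Each library came as a deposited table of raw counts per gene, laid out as featureCounts writes it, with Ensembl identifiers and exonic length. Per the submitters' processing notes the tools were STAR, featureCounts, DESeq2 and DESeq and the build Rnor_6.0. The strand setting and the handling of multi-mapped reads are not stated, so genes with close copies are uncertain; no member shares exon bases with another gene. The authors' deposited comparison table, per its file header, gives group means (a signal), log2 fold changes and p-values with adjusted p-values.

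R 4.3.3 and edgeR 4.0.16 were used (filterByExpr, TMM, robust quasi-likelihood F test, group as the only term, 11740 genes). SE was taken as |log2 fold change| over the root of F. The common coefficient of biological variation was 17.7%. All replicate pairs differed beyond sampling noise, so all 8 libraries were kept. The chi-square per degree of freedom was 4.36 to 14.8 for PAM pairs and 2.77 to 4.11 for vehicle pairs, so PAM libraries were more variable. In counts simulated for this comparison, 21.2% of 66 genes altered 1.5-fold, 86.4% of 66 altered 2-fold and 64 of 64 altered 4-fold were recovered (11594 genes tested, 7 of 142 calls false). The simulation altered 200 genes and gave all genes and both groups the same dispersion, so recovery in these data can differ.

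Members and lists were chosen with earlier results of these data known. All 35 members are named, with values per library for the 16 of smallest p and for members opposite in sign to their family's median; pathway lists name up to 4 called genes of smallest p, and marker lists the first 2 listed. Pdgfra, Ttr, Lrrc7 and Cyth2 were added after their values were seen, and some items are not reported here. Alternatives were RLE and upper-quartile scaling, DESeq2 1.42.0, limma-voom (limma 3.58.1), other low-count filters, the replicate block, each library left out, PAM 3 and PAM 4 left out, removal of the length trend (loess, span 0.5) and, added later, scaling to neuron markers.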

Additional observations from a re-analysis of the deposited data

Results flagged for a closer look

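In the 70 sets of 4 values screened (35 members in each group), no library's CPM lay so far from the other 3 of its group that it passed Dixon's 95% criterion, which chance passes in about 1 of 20 sets.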

How the results depend on the processing

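The number of members that fell was 14 to 16 under RLE and upper-quartile scaling, DESeq2, limma-voom and other filters on low counts, 14 to 17 with 1 library left out, and 14 with the length trend removed, with the 14 calls shared except that of Cnksr2 without vehicle 1. Over all genes, 1527 to 2408 were called with 1 library left out, against 2218 with all. Under RLE and upper-quartile scaling, DESeq2, limma-voom and other filters, 1052 to 1254 of 11740 to 19312 genes were called lower. With the length trend removed 1143 of 11740 were called lower, against 1161 in the main fit. Scaling to neuron markers called 3397 genes over the whole table, 3056 of them higher, against 1057 of 2218 with TMM, and 6 scaffold genes (5 lower and 1 higher). Without PAM 3 and PAM 4, 7 regulators fell, against 4, and 2900 genes of the whole table were called (1526 lower), against 2218 (1161 lower). Signs turned only for genes that did not pass: under the neuron scaling Dlg2 (0.066), Dlgap1 (0.023), Homer2 (0.15), Pick1 (0.043), Begain (0.096), Nsmf (0.092), Sipa1l1 (0.014) and Agap2 (0.068), Homer2 at 0.076 without vehicle 1 (-0.30 to 0.076 over the 8 libraries left out in turn), and Homer3 below 0 without PAM 3, vehicle 3 or vehicle 4 (-0.054 to 0.21 over the 8) and at -0.053 without PAM 3 and PAM 4; the cause was not tested. Libraries of the 2 groups share replicate numbers, but same-numbered libraries did not deviate together (r of -0.060 to 0.068 over genes). Not every library correlated best with its own number. Whether same-numbered libraries share a culture or batch is not stated and cannot be told from these correlations. With the replicate block 15 members fell, Psd being the addition (-0.33, edgeR adjusted p = 0.0431), and 2064 genes were called over the whole table. With the block and the length trend removed Synpo was the addition. Ratios within families paired by number could not pass, since the smallest p of 4 pairs is 0.125 (exact permutation). Priors of 0.5 and 5 CPM left the number of ratios without overlap at 8 and 9. Depth limits the low genes. Most 1.5-fold changes were not recovered in simulation, but it altered 200 genes, against 2218 called in these data. Its recovery need not hold here, and the smallest difference in means among the 14 called members was 1.34-fold.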
